A study of Homo sapiens with 2 samples.

Results

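The genes examined here are the ligands and the receptor of the apelin axis (APLN, APELA and APLNR) and 5 genes known from endothelial tip cells (ESM1, UNC5B, PDGFB, KCNE3 and NID2). They were taken by symbol, 8 of the 36601 genes in each of the count tables, and were chosen by earlier results of these data. The material was 2 blood-generating heart-forming organoids, BG-HFO 32.7 and BG-HFO 33.10, both on day 14 and both from hES3 NKX2.5-eGFP, a human embryonic stem cell line that carries a fluorescent reporter of a cardiac transcription factor. Aggregates in Matrigel had their WNT signalling modulated in 2 phases and received growth factors and cytokines that drive blood and endothelium, and each organoid was dissociated whole and gave 1 droplet library. Both organoids had the same treatment and the same line, and organoids without the blood-driving factors were not analysed here, so every comparison is between cells of the same organoids.

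In sprouting vessels, tip cells lead and stalk cells follow, and tip cells are known for high ESM1, APLN, UNC5B and PDGFB. Apelin (APLN) and Elabela (APELA) are secreted peptides that signal through the same G-protein-coupled receptor, APLNR, which marks venous and early cardiovascular progenitor cells in the embryo. ESM1 is a secreted proteoglycan, UNC5B a netrin receptor, PDGFB the ligand that draws in PDGFRB-bearing mural cells, KCNE3 an accessory subunit of potassium channels, and NID2 a basement membrane protein that links laminin to collagen IV.

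Cells were selected on measured values. A cell counted as endothelial when it held at least 1 UMI (a captured molecule with its own identifier) of CDH5, the endothelial cadherin, which was true of 4378 of 16792 cells of organoid 32.7 and 4360 of 19893 cells of organoid 33.10. These cells were divided by UMIs of CXCR4, a chemokine receptor high in arterial and tip cells, and NR2F2, a transcription factor of venous fate. The CXCR4-only gate held 1924 and 1846 cells, the NR2F2-only gate 913 and 918, the gate with both 429 and 403 and the gate with neither 1112 and 1193 (organoid 32.7 first, as in every pair of values that follows). Since CDH5, CXCR4 and NR2F2 set the gates, their own differences are not results.

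Libraries held 191152562 and 233818881 UMIs, with medians of 7887.5 and 8284 per cell after the filter, and shared 100 cell barcodes, 5 of them among CDH5-positive cells. The 8 endothelial markers other than CDH5 were all detected in CDH5-positive cells and summed to 3390 and 2910 CPM (UMIs of a gene per 1000000 UMIs of the gate), against 573 and 589 CPM in cells with no CDH5 UMI. The 5 arterial markers summed to 848 and 770 CPM in CXCR4-only and to 259 and 211 CPM in NR2F2-only cells, and the 4 venous markers to 332 and 294 against 865 and 855 CPM. Both gates also held RNA of other lineages, with megakaryocyte markers at 570 and 1410 CPM in CXCR4-only and 1320 and 1930 CPM in NR2F2-only cells, and mesenchymal markers at 432 and 282 against 801 and 627 CPM. Cardiomyocyte markers summed to 1630 and 2000 against 2000 and 1630 CPM, where the cardiomyocyte-like cells described below had 22200 and 18700 CPM. All 8 markers of each of these lists were detected in both gates. The part of such RNA in the members' levels was not tested. Of the 4378 and 4360 CDH5-positive cells, 3130 and 3226 remained when those meeting another lineage's marker rule (given below) were left out.

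On GRCh38, the annotation places APLN on chromosome X from 129645259 to 129654956, APELA on chromosome 4 from 164877178 to 164898965, APLNR on chromosome 11 from 57233577 to 57237250 and ESM1 on chromosome 5 from 54977867 to 55022671. UNC5B lies on chromosome 10 from 71212570 to 71302864, PDGFB on chromosome 22 from 39223359 to 39244982, KCNE3 on chromosome 11 from 74454841 to 74467729 and NID2 on chromosome 14 from 52004809 to 52069059. All are protein-coding genes, of which APELA and UNC5B are on the plus strand. RefSeq sequences upstream of the start (GRCh38.p14) were matched for APLN, APELA, ESM1, KCNE3 and NID2. The 250 bases before the start are shown for the ligands, whose levels went to different lineages, and for ESM1, which differed most between the gates. Capitals mark ACGTG, a form of the core of a hypoxia response element, on either strand. The form GCGTG was not searched and is not marked.
APLN, chrX:129654957-129655206, minus strand: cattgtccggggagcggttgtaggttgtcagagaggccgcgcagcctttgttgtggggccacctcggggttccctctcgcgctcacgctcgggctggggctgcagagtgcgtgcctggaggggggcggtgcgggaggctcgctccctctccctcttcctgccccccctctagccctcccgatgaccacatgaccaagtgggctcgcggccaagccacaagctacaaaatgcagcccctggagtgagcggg
APELA, chr4:164876928-164877177, plus strand: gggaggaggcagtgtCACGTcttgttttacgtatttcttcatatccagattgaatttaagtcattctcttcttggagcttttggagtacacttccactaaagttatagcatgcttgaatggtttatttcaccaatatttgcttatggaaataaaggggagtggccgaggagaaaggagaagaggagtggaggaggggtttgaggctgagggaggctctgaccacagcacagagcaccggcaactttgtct
ESM1, chr5:54985594-54985843, minus strand: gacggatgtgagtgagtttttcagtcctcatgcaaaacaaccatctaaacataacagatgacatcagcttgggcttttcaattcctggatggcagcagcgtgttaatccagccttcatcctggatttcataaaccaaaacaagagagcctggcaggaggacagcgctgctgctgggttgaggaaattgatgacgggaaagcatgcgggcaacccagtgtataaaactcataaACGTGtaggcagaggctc
ACGTG occurred once each in the windows of APELA and ESM1 and not in those of APLN, KCNE3 and NID2. It occurs in 18.5% of 35116 RefSeq windows of this length. No window of the 5 members held the other motifs searched on both strands, CCGGAA (ETS factors, 14.5% of windows), AACAAT (SOX factors, 8.98%) or TGGGAA (RBPJ, 20.8%). The ESM1 window lies inside the longer gene span of the annotation. A match of letters is a description and not a bound site.

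Within CDH5-positive cells the members did not move together. UNC5B, PDGFB, NID2 and APLN were higher in CXCR4-only than in NR2F2-only cells and the receptor APLNR was lower, whereas APELA and KCNE3 did not pass the test (quasi-likelihood test of edgeR on the UMI sums of each gate and organoid, n = 2 organoids, p-values adjusted by Benjamini-Hochberg over all genes tested). Thus 5 of the 7 members tested were called, 4 of them higher, where 15.1% of all 18699 genes tested were called. The median log2 fold change of these 7 members was 0.91, against -0.03 over all genes tested. The members were chosen with earlier results of these data known, so these counts describe them and do not test the set. ESM1 was known from earlier results as a leading gene of these cells and is described without a test.

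**Figure D1:**
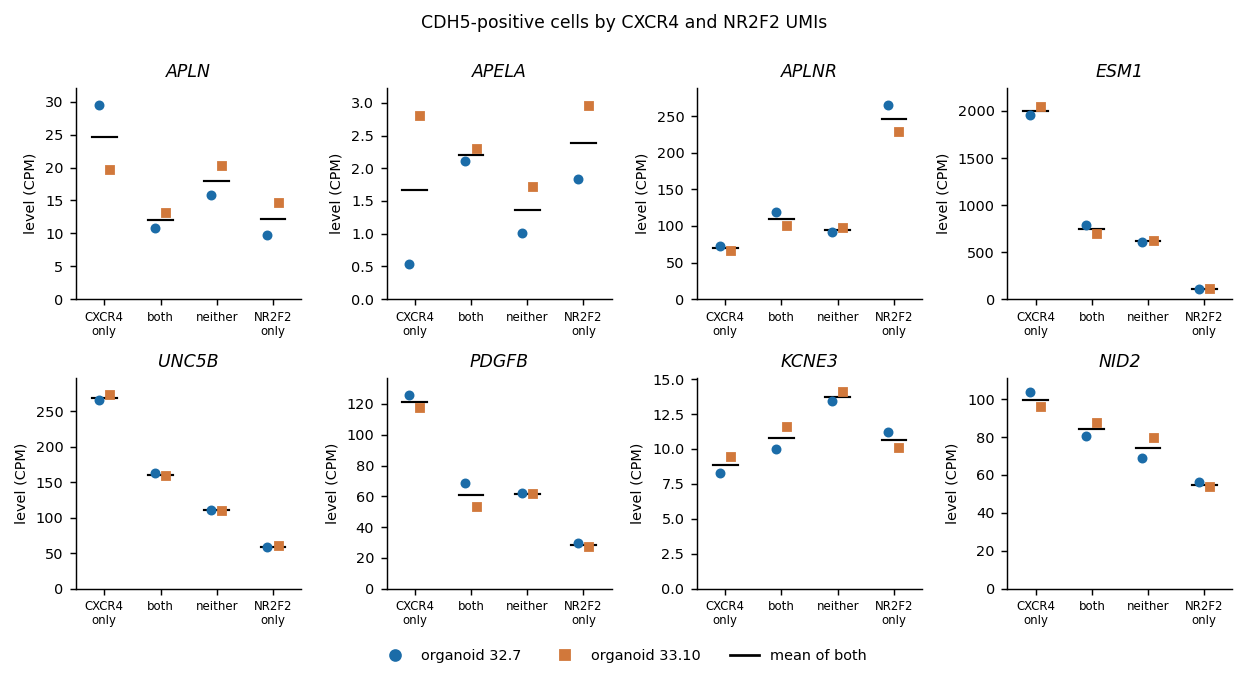
Level of each member (CPM, linear axes from 0) in the 4 gates of CDH5-positive cells, with a circle for organoid 32.7, a square for organoid 33.10 and a bar for their mean. ESM1, UNC5B, PDGFB and NID2 were highest in CXCR4-only cells, APLNR in NR2F2-only cells and KCNE3 in cells with neither UMI.

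ESM1 was at 1959 and 2040 CPM in CXCR4-only cells and at 109 and 105 CPM in NR2F2-only cells. Cells with both UMIs had 790 and 691 CPM and cells with neither had 609 and 620 CPM. No gate overlapped another, and both intermediate gates lay between the extremes in each organoid. The gates differed in depth, with medians of 20486 and 22055 UMIs (both) and 6047.5 and 6744 (neither). CXCR4-only cells had 13559 and 11962 UMIs and NR2F2-only cells 11574 and 12017. Leaving out predicted doublets left 280 and 220 cells with both UMIs. Megakaryocyte markers summed to 2100 and 2000 CPM in cells with neither. The part of depth, doublets and blood RNA in this order was not tested. The log2 fold change between CXCR4-only and NR2F2-only cells was 4.27 ± 0.11 (SE), the largest of the 8 members.

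The netrin receptor UNC5B was at 266 and 272 CPM in CXCR4-only and at 58.2 and 59.7 CPM in NR2F2-only cells, a log2 fold change of 2.24 ± 0.08 (adjusted p = 1.38e-05). Cells with both UMIs had 163 and 158 CPM and cells with neither 111 and 110 CPM, so that its 4 gates followed the order of ESM1 without overlap. PDGFB was at 126 and 117 CPM against 29.6 and 26.9 CPM, a log2 fold change of 2.15 ± 0.14 (adjusted p = 0.000163). Its intermediate gates, with 68.5 and 53.4 CPM (both) and 61.9 and 61.8 CPM (neither), overlapped each other. NID2 differed less, with 104 and 96.1 CPM against 56.4 and 53.5 CPM and a log2 fold change of 0.91 ± 0.10 (adjusted p = 0.00105).

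The ligand APLN was at 29.6 and 19.7 CPM in CXCR4-only and at 9.80 and 14.5 CPM in NR2F2-only cells. Cells with both UMIs had 10.9 and 13.1 CPM, and cells with neither had 15.8 and 20.2 CPM. CXCR4-only and NR2F2-only cells did not overlap, but the distance between them differed between the organoids, and cells with neither UMI overlapped CXCR4-only cells. The log2 fold change was 1.07 ± 0.25 (adjusted p = 0.03). On another scale, the log2 ratio of CPM with 1 CPM added, it was 1.5 without organoid 33.10 and 0.41 without organoid 32.7. The call was lost when the cells most like doublets were left out (adjusted p = 0.0753) and when cells were thinned to 3000 UMIs before gating (log2 fold change 0.36, adjusted p = 0.439). A few cells carried much of the APLN signal: 10 cells held 23.5% and 25% of its 936 and 557 UMIs in the CXCR4-only gate, with up to 45 and 55 UMIs in 1 cell.

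The receptor APLNR was the only member called in the other direction. It was at 72.9 and 65.9 CPM in CXCR4-only and at 265 and 229 CPM in NR2F2-only cells, with 119 and 99.6 CPM in cells with both UMIs and 92.1 and 97.3 CPM in cells with neither. NR2F2-only cells stood above every other gate in both organoids, and the log2 fold change was -1.78 ± 0.13 (adjusted p = 0.000246). After thinning to 3000 UMIs, 49.5% and 49.4% of NR2F2-only cells had an APLNR UMI, against 20.1% and 17.9% of CXCR4-only cells (77.7% and 81.7% against 50.3% and 46.0% before thinning).

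The second ligand, APELA, was near the limit of detection in endothelium, with 0.537 and 2.79 CPM in CXCR4-only and 1.83 and 2.95 CPM in NR2F2-only cells. The gates overlapped, with a log2 fold change of -0.49 ± 0.65 (adjusted p = 0.67). In organoid 33.10, 1 CXCR4-only cell held 41 of the 79 APELA UMIs of that gate. KCNE3 was at 8.31 and 9.44 CPM against 11.2 and 10.1 CPM, a log2 fold change of -0.22 ± 0.14 (adjusted p = 0.339), and was highest in cells with neither UMI (13.4 and 14.1 CPM). With CDH5-positive cells that carried another lineage's markers left out, the values of the 5 called members were at least as large: 2.42 for UNC5B, 2.23 for PDGFB, 1.06 for NID2, 1.15 for APLN and -1.92 for APLNR.

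Other genes of the same programmes were counted from lists, in a comparison where 15.1% of all 18699 genes tested were called. Of 18 tip genes, 11 were higher in CXCR4-only cells, 1 was lower and 6 did not pass, with a median log2 fold change of 1.01 against -0.03 over all genes tested. The largest were ANGPT2, an angiopoietin released by sprouting endothelium (320 and 323 against 40.1 and 53.4 CPM, log2 fold change 2.83 ± 0.14, adjusted p = 5.86e-05), and IGFBP3, a binding protein of insulin-like growth factors (2.73 ± 0.23, adjusted p = 0.000393). The only tip gene called lower was NRP2, which is also on the list of venous markers, and DLL4 is also on the arterial one. Stalk and quiescence genes did not go the opposite way as a list: of 12, 6 were higher, 2 lower and 4 did not pass, with a median of 0.35. TEK, the angiopoietin receptor, was lower in CXCR4-only cells (log2 fold change -2.19 ± 0.11, adjusted p = 6.49e-05), and HEY1, a Notch target, was higher (1.74 ± 0.19, adjusted p = 0.00112).

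Of 15 genes of apelin processing and signalling, 12 passed the filter on low counts. Of these, 3 were higher, 2 lower and 7 did not pass the test, with a median of 0.08. Over all 18699 genes tested, 15.1% were called and the median was -0.03. FURIN, a protease that cleaves proapelin, was at 62.5 and 55.3 CPM in CXCR4-only and at 36.3 and 33.0 CPM in NR2F2-only cells (log2 fold change 0.81 ± 0.14, adjusted p = 0.0095). MME, neprilysin, which degrades apelin, was at 6.79 and 4.70 against 26.0 and 25.3 CPM (log2 fold change -2.10 ± 0.19, adjusted p = 0.000503). FURIN was thus higher in the gate with more APLN, whose call was lost under alternatives given above, and MME in the gate with more APLNR. No link within these pairs was tested.

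Among single CDH5-positive cells, thinned to 3000 UMIs each, those with an ESM1 UMI (2301 of 4070 cells of organoid 32.7) had more APLN, UNC5B, PDGFB and NID2 and less APLNR than those without. APLN was at 27.8 against 8.48 CPM in organoid 32.7 and at 28.0 against 11.6 CPM in organoid 33.10. PDGFB was at 133 against 38.6 and 139 against 33.7 CPM, and UNC5B at 261 against 95.5 and 262 against 90.0 CPM. APLNR was at 86.9 against 228 and 81.2 against 202 CPM. Inside the NR2F2-only gate, PDGFB was again higher in cells with an ESM1 UMI, by ratios of 2.98 and 3.60, and APLNR lower, by ratios of 0.354 and 0.71. These ratios describe cells of the same libraries, which are not replicates, and were not tested.

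**Figure D2:**
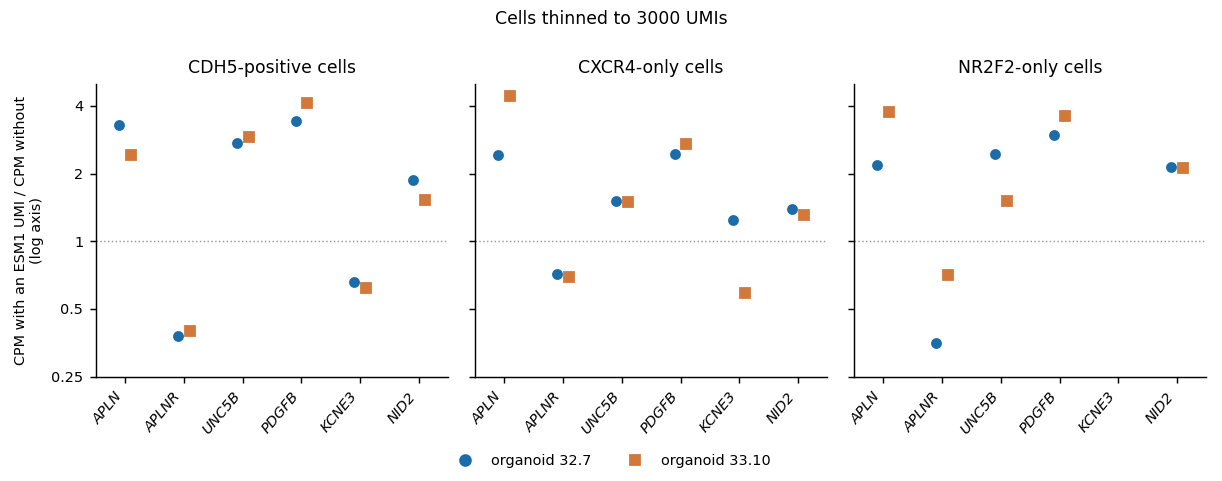
Ratio of each gene's level in cells with an ESM1 UMI to that in cells without (log axis), in cells thinned to 3000 UMIs, for all CDH5-positive cells and for the CXCR4-only and NR2F2-only gates; circles are organoid 32.7 and squares organoid 33.10, and ratios resting on 3 or fewer UMIs are not drawn. PDGFB ratios lay between 2.45 and 4.12 and APLNR ratios between 0.354 and 0.714 in every panel.

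Among the 8 members, rank correlations over these 4070 and 4049 cells, which share library and depth, were highest for ESM1 with PDGFB (Spearman's rho 0.313 and 0.331) and with UNC5B (0.310 and 0.329) and lowest for ESM1 with APLNR (-0.220 and -0.220). ESM1 and APLN, the usual pair of tip cell markers, were at 0.137 and 0.101. Only 183 and 207 of these cells had an APLN UMI, and such sparse counts limit rho. In the split by ESM1 above, the ratios were 3.28 and 2.42 for APLN and 2.73 and 2.90 for UNC5B. The split by APLN gave different results in the organoids: cells with an APLN UMI had 0.803 times the APLNR level of the others in organoid 32.7 and 1.26 times in organoid 33.10. None of the 183 and 207 cells with an APLN UMI had an APELA UMI. A floor of 3 cells allows a share of about 1.64% and 1.45%, above the 0.309% and 0.338% in cells without APLN. Overlap of the ligands was thus not measurable at this depth.

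As a check of the CDH5 threshold, levels were followed over the number of CDH5 UMIs in a cell, without a test. ESM1 was at 65.5 and 68.8 CPM in cells with no CDH5 UMI, at 636 and 747 CPM with 1 UMI and at 1165 and 1253 CPM with 2. APLNR went from 13.6 and 14.9 CPM (none) to 78.0 and 84.8 (1 UMI) and 121 and 108 CPM (2 UMIs). Cells just inside the threshold thus held less of both than cells with more CDH5, and KCNE3 went the other way, from 15.8 and 20.3 CPM (none) to 13.2 and 13.0 (1 UMI) and 9.63 and 10.4 CPM (2 UMIs).

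**Figure D3:**
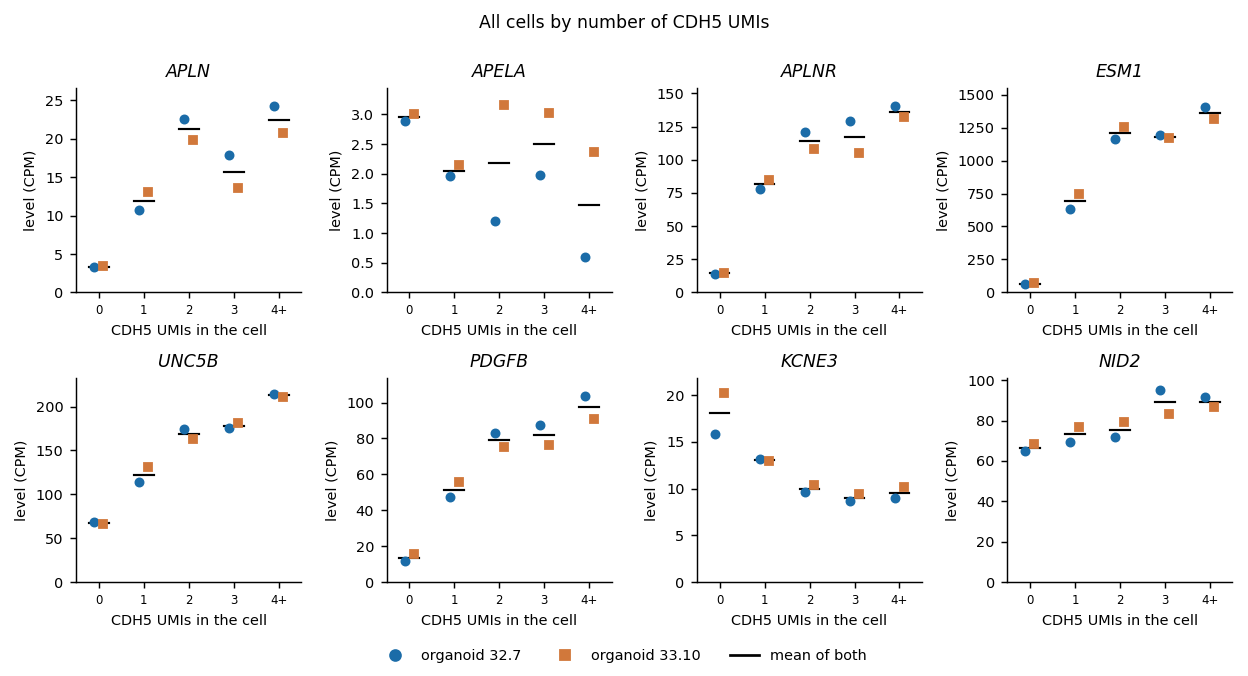
Level of each member (CPM, linear axes from 0) in all cells grouped by their number of CDH5 UMIs, with a circle for organoid 32.7, a square for organoid 33.10 and a bar for the mean. ESM1 went from 65.5 and 68.8 CPM with no CDH5 UMI to 1409 and 1314 CPM with 4 or more, and KCNE3 was highest in cells with none.

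Across the organoid, the label of endothelial tip genes held for some members only. CDH5-positive cells were compared with cells that had no CDH5 UMI and at least 4 of 8 markers of 1 of 7 other lineages: cardiomyocyte-like (2728 and 2798 cells), epicardial or septum transversum-like (434 and 507), mesenchymal-like (1839 and 1475), megakaryocyte-like (1070 and 3025), erythroid-like (479 and 1238), monocyte or macrophage-like (580 and 308) and haematopoietic progenitor-like cells (83 and 89). The leading list had to exceed the next by 2 markers, and the rule was written with the data in view. Epicardial cells needed 3 markers and no more than 3 of another list, with mesenchymal and mural markers not limited. Their mesenchymal markers summed to 4450 and 3620 CPM, against 5720 and 4430 CPM in mesenchymal-like cells, so these 2 lineages are not cleanly separated. ESM1, APLNR and APLN were higher in CDH5-positive cells than in each of the 7 lineages and PDGFB and UNC5B than in 6, but NID2 and APELA were lower than in cardiomyocyte-like cells, and KCNE3 was lower than in 4 blood lineages.

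Read against all genes, these counts have a wide background, and they include ESM1, whose high level in these cells was known from earlier results. The other members were also chosen with earlier results of these data known, so the counts do not test the set. Of the 8 members, all were called against cardiomyocyte-like cells (6 higher and 2 lower), where 44.3% of 20718 genes were called. Against epicardial-like cells 5 were called (background 34.3%) and against mesenchymal-like cells 8 (39.5%). Against megakaryocyte-like cells 7 were called (51.4%), and 8 each against erythroid-like (59.5%), monocyte or macrophage-like (48.4%) and haematopoietic progenitor-like cells (43.1%). Median log2 fold changes of the members lay between 1.49 and 5.76, against medians over all genes of -0.03, -0.02 and -0.03 for the cardiac and mesenchymal lineages. Over all genes the medians were shifted to 0.13, 0.30, 0.18 and 0.26 in the megakaryocyte, erythroid, monocyte and progenitor comparisons, and changes there are to be read relative to that shift.

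**Figure D4:**
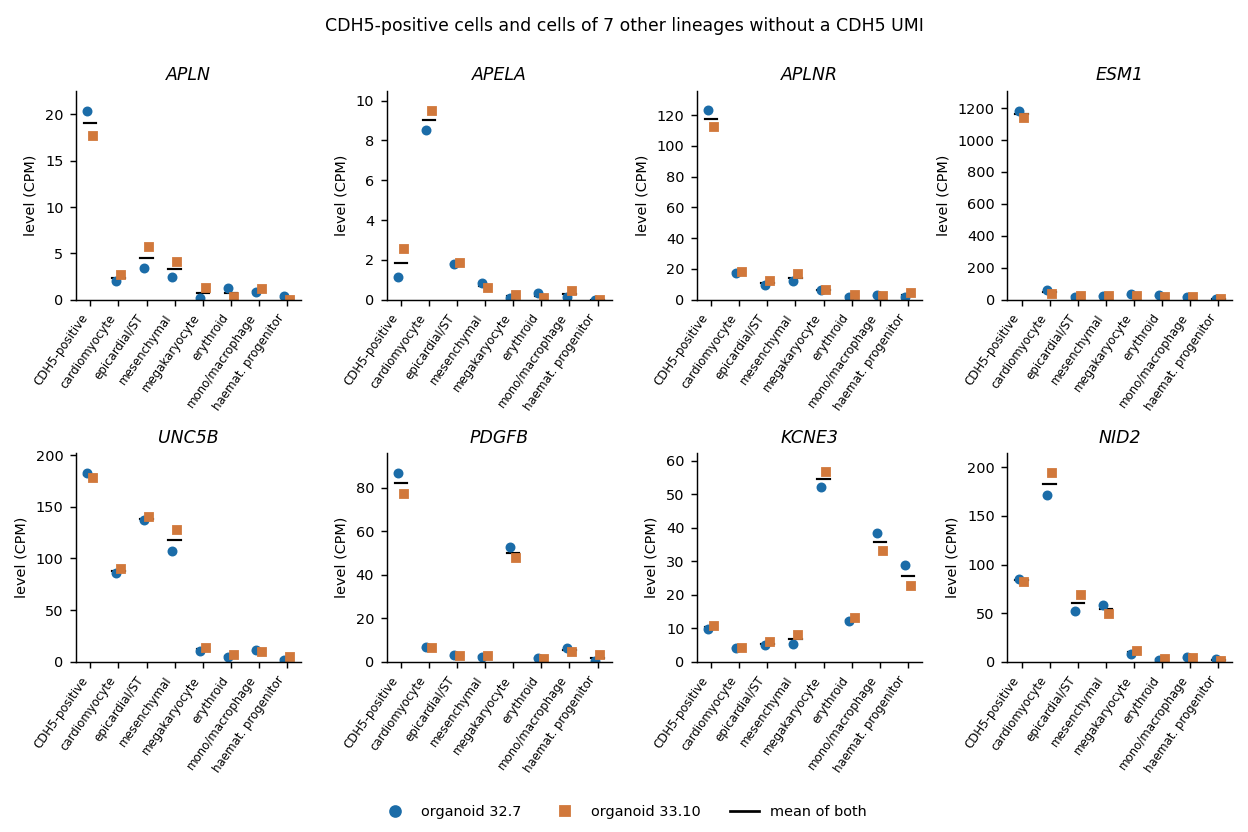
Level of each member (CPM, linear axes from 0) in CDH5-positive cells and in cells of 7 other lineages with no CDH5 UMI, with a circle for organoid 32.7, a square for organoid 33.10 and a bar for the mean (ST, septum transversum). APLN, APLNR, ESM1, UNC5B and PDGFB were highest in CDH5-positive cells, APELA and NID2 in cardiomyocyte-like cells and KCNE3 in megakaryocyte-like cells.

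The ligands of the apelin axis went to different lineages. APLN was at 20.4 and 17.6 CPM in CDH5-positive cells and next at 3.42 and 5.63 CPM in epicardial-like, 2.49 and 4.10 CPM in mesenchymal-like and 2.04 and 2.62 CPM in cardiomyocyte-like cells. The mesenchymal-like values overlapped both of the others, which did not overlap each other. In the 4 blood lineages it stayed at or below 1.28 CPM. Its log2 fold change was 2.06 ± 0.46 against epicardial-like (adjusted p = 0.00376) and 2.96 ± 0.44 against cardiomyocyte-like cells (adjusted p = 0.000156). Progenitor-like cells held 1 APLN UMI in all, so that the ratio there, 79.5, has a counting interval from 14.3 to 3140.

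APELA was at 8.55 and 9.50 CPM in cardiomyocyte-like cells, above every other tested lineage in both organoids. CDH5-positive cells had 1.13 and 2.55 CPM and epicardial-like cells 1.78 and 1.83 CPM, which overlapped, and mesenchymal-like cells 0.814 and 0.595 CPM. The log2 fold change of CDH5-positive against cardiomyocyte-like cells was -2.36 ± 0.37 (adjusted p = 0.00035). After thinning, 2.43% and 3.39% of cardiomyocyte-like cells had an APELA UMI, against 0.295% and 0.321% of CDH5-positive and 0.222% and 0.0852% of erythroid-like cells (6.09% and 8.76%, 1.21% and 1.88%, and 0.626% and 0.0808% before thinning). The call of higher APELA in CDH5-positive than in mesenchymal-like cells (log2 fold change 1.28 ± 0.46, adjusted p = 0.0455) was lost under 5 alternatives and turned to -0.63 in thinned cells. Progenitor-like cells held no APELA UMI. Pooled over both organoids, CDH5-positive cells were 2.55-fold above a floor of 3 UMIs in progenitor-like cells (1.83 against 0.718 CPM). The pooled ratio leaves out the spread between organoids, and 1 cell of organoid 33.10 held 41 of its 165 APELA UMIs. It is therefore no bound for each organoid.

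The receptor was widest in its contrast with blood. APLNR was at 123 and 112 CPM in CDH5-positive cells, at 17.5 and 18.2 CPM in cardiomyocyte-like and at 12.1 and 16.6 CPM in mesenchymal-like cells, and between 1.94 and 6.20 CPM in the 4 blood lineages. Among CDH5-positive cells and the 7 tested lineages, cardiomyocyte-like cells had the most APELA and the second highest level of its receptor. Their APLNR level did not overlap that of the mesenchymal-like cells. Cells that met no lineage's rule and held no CDH5 UMI had more APLNR, 20.4 and 22.1 CPM. The log2 fold change ranged from 2.66 ± 0.17 against cardiomyocyte-like cells (adjusted p = 2.57e-07) to 5.26 ± 0.23 against monocyte or macrophage-like cells (adjusted p = 1.11e-08).

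ESM1 was at 1185 and 1140 CPM in CDH5-positive cells and, among the 7 other lineages, at most 59.3 and 36.5 CPM, in cardiomyocyte-like cells. Cells that met no lineage's rule and held no CDH5 UMI had more, 127 and 145 CPM. Its fitted log2 fold changes ran from 4.54 ± 0.34 (cardiomyocyte-like) to 8.29 ± 0.48 (progenitor-like) and are a description, since its high level in these cells was known. After thinning, 56.5% and 55.8% of CDH5-positive cells and 3.99% and 2.56% of erythroid-like cells, which should lack the gene, had an ESM1 UMI (66.8% and 65.8% against 9.6% and 7.11% before thinning, at median depths of 11796.5 and 11168 against 15432 and 10744.5 UMIs). With 10% of each library's profile removed as free RNA, no ESM1 UMI remained in 6 of the 7 other lineages. In cardiomyocyte-like cells 15.8 and 0 CPM remained. The 10% was a setting and not an estimate. As ESM1 was at 451 and 369 CPM over all cells, low levels elsewhere fall to 0 by this step alone. Whether ESM1 outside the endothelium was free RNA was not tested.

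UNC5B and PDGFB differed in where else they were found. UNC5B was at 183 and 178 CPM in CDH5-positive, 137 and 140 CPM in epicardial-like, 107 and 128 CPM in mesenchymal-like and 86.0 and 90.3 CPM in cardiomyocyte-like cells, and at most 13.7 CPM in blood lineages. Against epicardial-like cells its log2 fold change was 0.37 ± 0.15 (adjusted p = 0.0816), and with the organoid as a block it passed (adjusted p = 0.0145). The call against cardiomyocyte-like cells (0.97 ± 0.15, adjusted p = 0.000237) was lost with 10% of free RNA removed (adjusted p = 0.111), as was that against mesenchymal-like cells (0.56 ± 0.15, adjusted p = 0.0106, then 0.345). This step takes about the same CPM from each of these gates of a library, and why the calls were lost was not tested.

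PDGFB was at 86.9 and 77.2 CPM in CDH5-positive and at 52.6 and 48.0 CPM in megakaryocyte-like cells, and between 0.401 and 6.63 CPM in the other lineages. Megakaryocytes are known to store PDGF in their granules. The log2 fold change of 0.43 ± 0.19 against megakaryocyte-like cells did not pass (adjusted p = 0.0843) and did with the organoid as a block (adjusted p = 0.00289), while against cardiomyocyte-like cells it was 3.60 ± 0.22 (adjusted p = 1.79e-07).

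KCNE3 and NID2 were highest outside the endothelium. KCNE3 was at 52.4 and 56.7 CPM in megakaryocyte-like, 38.6 and 33.2 CPM in monocyte or macrophage-like and 28.8 and 22.6 CPM in progenitor-like cells, without overlap between them, and at 9.94 and 10.8 CPM in CDH5-positive cells. CDH5-positive cells were lower than megakaryocyte-like cells by a log2 fold change of -2.68 ± 0.16 (adjusted p = 8.65e-08). They were higher than cardiomyocyte-like (1.29 ± 0.17, adjusted p = 6.48e-05) and epicardial-like cells (0.92 ± 0.19, adjusted p = 0.00268), which had 4.13 and 4.00 CPM and 4.93 and 5.92 CPM. After thinning, 2.46% and 2.79% of CDH5-positive cells had a KCNE3 UMI, fewer than the 4.88% and 4.94% of erythroid-like cells (11.4% and 12.2% against 19.6% and 14.0% before thinning), so the share in endothelium is not read as expression. The fitted difference from erythroid-like cells, -0.92 ± 0.17 (adjusted p = 0.00042), was larger than the log2 ratios of CPM in the single organoids, -0.26 and -0.25 with 1 CPM added to both sides.

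NID2 was at 172 and 194 CPM in cardiomyocyte-like cells and at 84.9 and 82.4 CPM in CDH5-positive cells, a log2 fold change of -1.19 ± 0.20 (adjusted p = 0.000372). Epicardial-like cells had 51.9 and 68.7 CPM and mesenchymal-like cells 58.6 and 49.3 CPM, which overlapped each other, and blood lineages at most 11.5 CPM, with log2 fold changes of CDH5-positive cells over these from 2.77 ± 0.22 (megakaryocyte-like, adjusted p = 5.28e-07) to 5.16 ± 0.37 (progenitor-like, adjusted p = 3.37e-07). Against mesenchymal-like cells its call (0.57 ± 0.20, adjusted p = 0.0373) was lost with 10% of free RNA removed (adjusted p = 0.113), and that of KCNE3 (0.57 ± 0.17, adjusted p = 0.0176) without predicted doublets (adjusted p = 0.238). Why these calls were lost was not tested. Against epicardial-like cells the log2 fold change of NID2, 0.46 ± 0.20, did not pass (adjusted p = 0.0947) and did with the organoid as a block (adjusted p = 0.0289).

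Partners of these proteins were taken from a list of 12. Against the 4 blood lineages 10, 11, 10 and 11 partners were higher in CDH5-positive cells (megakaryocyte, erythroid, monocyte and progenitor), and 1, KCNQ1, was lower than in monocyte or macrophage-like cells. In these comparisons 51.4%, 59.5%, 48.4% and 43.1% of all genes were called, more of them higher than lower (7435 against 4882 for erythroid-like cells). The partners' median log2 fold changes were 1.92, 2.54, 2.12 and 3.69, against 0.13, 0.30, 0.18 and 0.26 over all genes. Against cardiomyocyte-like cells 3 were higher and 3 lower, against epicardial-like cells 2 and 5, and against mesenchymal-like cells 3 and 4. Over all genes, 44.3%, 34.3% and 39.5% were called against the same lineages. ROBO4, an endothelial receptor that binds UNC5B, was at 65.0 and 53.7 CPM in CDH5-positive cells and at most 2.88 CPM in the other lineages, with a log2 fold change of 4.37 ± 0.21 against cardiomyocyte-like cells (adjusted p = 4.82e-08). PDGFRB, the receptor of PDGFB, was at 10.3 and 11.3 CPM in CDH5-positive, 92.0 and 110 CPM in mesenchymal-like and 115 and 109 CPM in epicardial-like cells, a log2 fold change of -3.29 ± 0.22 against mesenchymal-like cells (adjusted p = 3.58e-07). HSPG2, the basement membrane proteoglycan perlecan, was higher in CDH5-positive than in epicardial-like cells (3.41 ± 0.22, adjusted p = 3.78e-07), and PDGFRA was lower than in cardiomyocyte-like cells (-2.16 ± 0.15, adjusted p = 5.03e-07). COL4A1, a chain of collagen IV that is also on the tip list, was higher in CDH5-positive than in erythroid-like cells (4.94 ± 0.24, adjusted p = 9.74e-09) and progenitor-like cells (6.64 ± 0.33, adjusted p = 2.54e-08). NTN4, a netrin, was called higher than in progenitor-like cells (adjusted p = 0.0497), where it was at 0 CPM in both organoids, so no fold is given.

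Patterns over all 22 sums (4 endothelial gates and 7 lineages in each organoid, which share their libraries) were compared among 11005 genes of at least 20 CPM in 1 of them. FGF12, AC114757.1 and ADAMTS5 were most like ESM1 (Pearson's r 0.990, 0.987 and 0.986 of log2 CPM with 10 added) and AC004470.1, SLC9A3R2 and TMEM204 most like APLN (0.972, 0.963 and 0.961). KANK3, TSPAN11 and NT5E, the last a venous marker here, were most like APLNR (0.985, 0.982 and 0.979). SCUBE3, SLC16A12 and CKMT2 were most like APELA (0.964, 0.962 and 0.961). APELA itself reached at most 9.50 CPM, below the 20 CPM asked of the compared genes and the 10 CPM added. All its correlations thus rest on small differences near the floor. Among the members, ESM1 was nearest to APLN (0.921) and PDGFB (0.878), APELA was nearest to NID2 (0.743), and KCNE3 ran against each of APLN, APELA, APLNR and ESM1 (-0.39, -0.585, -0.379 and -0.304). These values are descriptions over points that are not independent.

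With the cell cycle, which set none of the gates above, most tip genes fell, and so did general endothelial markers. CDH5-positive cells with at least 2 UMIs of MKI67 and TOP2A together (549 and 637 cells) were compared with those that had none (3459 and 3386 cells). ESM1 was at 435 and 382 CPM in cycling and 1473 and 1525 CPM in non-cycling cells, a log2 fold change of -1.86 ± 0.14 (adjusted p = 0.00199). PDGFB was at 41.8 and 34.4 against 105 and 97.0 CPM (-1.40 ± 0.15, adjusted p = 0.00448) and UNC5B at 97.0 and 111 against 214 and 213 CPM (-1.04 ± 0.10, adjusted p = 0.00341). Cycling and non-cycling cells did not overlap in any of the 3 genes. PECAM1, a general endothelial marker, was lower as well, at 155 and 151 against 351 and 344 CPM. Whether the tip genes fell more than endothelial RNA as a whole was not tested.

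Both parts of the APLN and APLNR pair fell as well. APLN was at 9.93 and 12.1 CPM in cycling and 24.2 and 20.8 CPM in non-cycling cells (-1.02 ± 0.15, adjusted p = 0.0129), and APLNR at 80.4 and 77.9 against 137 and 125 CPM (-0.72 ± 0.11, adjusted p = 0.0131). NID2 at 64.7 and 72.6 against 92.3 and 87.1 CPM (-0.38 ± 0.10, adjusted p = 0.0539), KCNE3 at 15.4 and 11.6 against 8.44 and 10.3 CPM (0.53 ± 0.21, adjusted p = 0.138) and APELA at 1.09 and 5.19 against 1.09 and 1.54 CPM (1.27 ± 0.64, adjusted p = 0.23) did not pass. With the organoid as a block all 3 did (adjusted p = 0.00303, 0.0408 and 0.0382). Thus 5 of 8 members were called, all lower, where 15.1% of 20476 genes were called, and the members' median was -0.87 against 0.00407 over all genes. These counts too are of members chosen with earlier results known.

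**Figure D5:**
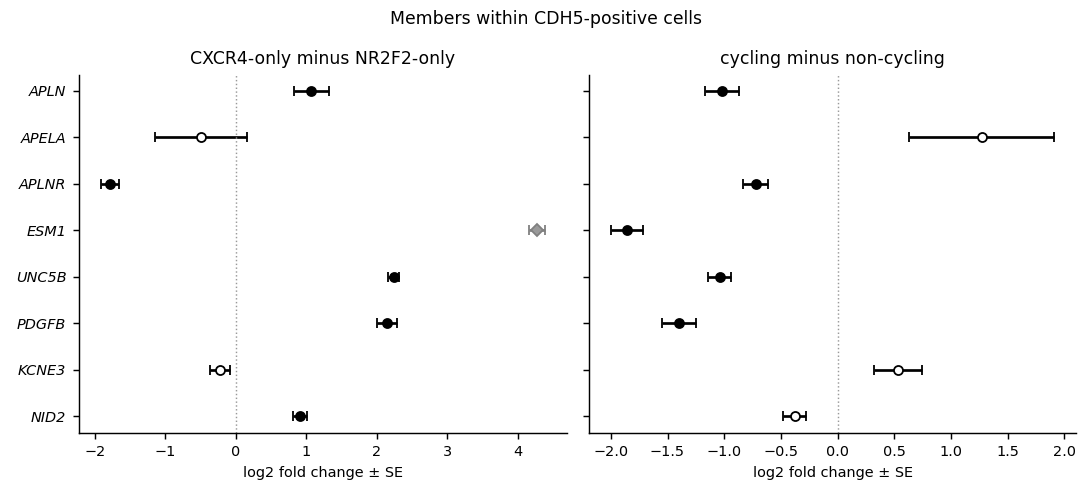
Log2 fold change ± SE of each member between CXCR4-only and NR2F2-only cells (left) and between cycling and non-cycling CDH5-positive cells (right), from fits over n = 2 organoids. Filled circles passed an adjusted p of 0.05, open circles did not, and the grey diamond of ESM1 was not tested; the values of the left panel run from -1.78 to 4.27 and those of the right panel from -1.86 to 1.27.

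Other measures moved with the cycling gate. Median depth was 23643 and 25288 UMIs in cycling and 11028 and 9721.5 in non-cycling cells, and the endothelial markers summed to 1850 and 1660 against 3970 and 3510 CPM. Monocyte and macrophage markers summed to 1260 and 559 against 283 and 182 CPM and progenitor markers to 414 and 342 against 124 and 143 CPM, with all 8 markers of each list detected in both. RUNX1, the transcription factor of blood formation from endothelium, was at 185 and 170 against 31.2 and 53.0 CPM. Arterial markers summed to 277 and 235 CPM in cycling and 741 and 646 CPM in non-cycling cells. Venous markers differed less, with 300 and 333 against 514 and 487 CPM. CXCR4, a gate gene above, was at 67.3 and 55.8 against 211 and 198 CPM. The part of this arterial shift in the members' changes was not tested. Leaving out predicted doublets left 364 and 315 cycling and 2892 and 2723 non-cycling cells. With CDH5-positive cells of another lineage's markers left out, the log2 fold changes were as large or larger: -1.95 for ESM1, -1.48 for PDGFB, -1.14 for UNC5B, -1.04 for APLN and -0.77 for APLNR. The call was lost for APLN and APLNR in cells thinned before gating (adjusted p = 0.123 and 0.422), which left 66 and 68 cycling cells.

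CDH5-positive cells that carried RUNX1 UMIs (862 and 968 cells) were described beside those without (3516 and 3392 cells), with no test. ESM1 was at 676 and 612 CPM with RUNX1 and 1410 and 1462 CPM without, and APLNR at 61.7 and 67.9 against 150 and 139 CPM. UNC5B was at 124 and 125 against 209 and 210 CPM, PDGFB at 53.7 and 49.2 against 102 and 94.2 CPM and APLN at 12.3 and 14.0 against 24.0 and 19.8 CPM. KCNE3 ran the other way in both organoids, with 16.4 and 17.7 against 7.08 and 6.61 CPM. APELA was at 1.49 and 4.76 against 0.967 and 1.19 CPM. It had only 74 and 165 UMIs in all CDH5-positive cells, 41 of the 165 in 1 cell, so no direction is read from it. Cells with RUNX1 had median depths of 18343 and 20766.5 against 10642 and 9452.5 UMIs. The endothelial markers summed to 2050 and 1850 CPM in them, against 3990 and 3550 CPM, and the monocyte and macrophage markers to 1400 and 636 against 144 and 89.9 CPM, and the part of blood cell RNA in these differences was not tested.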

How the data were processed

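Deposited values were raw UMI counts that the authors obtained with Cell Ranger 7.0.0 (reads of a 3' droplet library aligned to GRCh38, intronic reads included, UMIs collapsed per gene and barcode, cells called), 1 matrix per organoid, without normalization. These counts precede the study's removal of free RNA. Cells with 50 to 11000 genes and under 30% mitochondrial UMIs were kept, doublets too. The 2 organoids were the replicates and each gave 1 library, so p-values measure the spread between 2 organoids only.

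UMIs were summed per gate and organoid and tested with edgeR 4.0.16 (R 4.3.3; TMM, filterByExpr, quasi-likelihood test, two-sided, Benjamini-Hochberg over all genes, threshold 0.05), with DESeq2 1.42.0 as an alternative. The standard error is the log2 fold change divided by the square root of F. Values without 1 organoid are log2 ratios of CPM, with 1 CPM added, in the other, with no test. Gates of 1 organoid come from the same library, and their deviations from the gate means correlated (r from 0.59 to 0.748 between the 4 gates, 0.135 to 0.741 between lineages and 0.706 for the cycling gates). Intervals are exact, at 95%. Floors for a count of 0 put 3 in its place, an approximate upper limit. Both cover counting error only. Scrublet in scanpy 1.11.5 scored doublets, and its top 2276 and 3183 cells were removed in an alternative, since its own threshold marked 0 cells of organoid 32.7.

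Members and lists were chosen with earlier results of these data known. All 8 members are named, and from each list the 2 passing genes of largest fold, as well as NRP2, DLL4 and KCNQ1, which were named after their values were seen. No number of mural-like cells is given here, so their absence is not shown, and endoderm-like cells (67 and 16) were too few to test. Gene positions are from GENCODE.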

Additional observations from a re-analysis of the deposited data

How the results depend on the processing

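Of 89 recounts of called genes, 80 stayed within 1.5 times. With the organoid as replicate block, 7045 genes were called between CXCR4-only and NR2F2-only cells (2824 without it) and 8193 between cycling and non-cycling cells (3101 without it). With cells thinned to 3000 UMIs before gating, which leaves fewer counts and cells, 1737 and 333 were called, and 3791, 8011 and 6359 against epicardial, erythroid and monocyte or macrophage-like cells (7104, 12317 and 10027 unthinned). Between cycling and non-cycling cells, 4924 were called without cells of another lineage's markers and 4761 without predicted doublets, and the cause was not tested.

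For single members, 732 of the values stayed the same, 67 moved, 21 gained a call, 22 lost one and 12 changed sign. Staying the same meant keeping direction and side of the threshold. Values without 1 organoid, and ESM1 between the gates, had no test. For these it meant keeping direction and lying within 1 SD of the main value, and moved meant lying beyond it. The SD was that of the 2 values without an organoid. Of the 22 lost calls, 8 were in thinned cells and 4 each without predicted doublets and with 10% of free RNA removed. Another 3 were without cells of another lineage's markers. Not all of the 22 are named in this text. Of the 12 changes of sign, 8 were of APELA against epicardial-like cells: -0.04 with the block, -0.01 with DESeq2, -0.39 without organoid 33.10 (a log2 ratio of CPM with 1 CPM added, not a fitted value), -0.05 with 2 CDH5 UMIs, -0.04 with PECAM1, -0.12 without cells of another lineage's markers, -0.40 without predicted doublets and -3.44 in thinned cells. The others were APELA between the gates without predicted doublets (0.34), APELA against mesenchymal-like cells and NID2 against epicardial-like cells in thinned cells (-0.63 and -0.39), and APELA in cycling cells without organoid 33.10 (-0.0032, on the same scale as the other value without that organoid). The stricter cell filter and the test of all genes changed no member's call. The block changed no call other than those given with it. Thinned progenitor-like cells (31 and 36) and cells with both UMIs (42 and 28) were too few to fit. The depth limits APELA most, with 74 and 165 UMIs in all CDH5-positive cells.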

Other observations

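Posterior foregut endoderm-like cells, 67 in organoid 32.7 and 16 in organoid 33.10, were too few for a test. APELA was at 4.80 CPM in those of organoid 32.7 and at 52.5 CPM in those of organoid 33.10, where cardiomyocyte-like cells had 9.50 CPM, and APLN was at 0 CPM in both. UNC5B was at 37.5 and 31.5 CPM and PDGFB at 13.4 and 10.5 CPM. Among cells that met no lineage's rule and held no CDH5 UMI (5134 and 6077 cells), ESM1 was at 127 and 145 CPM, above every lineage other than CDH5-positive cells in both organoids, and the endothelial markers summed to 749 and 743 CPM.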
